A study of Homo sapiens with 8 samples.

Results

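The genes described are the chains of the interferon receptors (IFNAR1, IFNAR2, IFNGR1, IFNGR2, IFNLR1 and IL10RB), the Janus kinases bound to them (JAK1, JAK2 and TYK2) and SOCS1, an inhibitor of these kinases. They were chosen by symbol, taking the entry with the highest mean where a symbol stood on more than 1 entry, which gave 10 of the 63816 gene entries in the expression table. Caco-2, an established line from a human colorectal adenocarcinoma, had been stably transfected either with the empty expression vector pcDNA3.1 (Empty_Vector, 4 samples) or with that plasmid carrying SIGLEC12 (Siglec12, 4 samples), and both groups had been selected in G418. SIGLEC12 encodes Siglec-XII, a human Siglec that does not bind sialic acid but keeps inhibitory signaling motifs in its cytoplasmic tail. Each group came from its own transfection, so the gene carried and the history of the selected cells cannot be told apart. The series text speaks of stable clones and of 3 cultures per condition, the methods speak of technical replicate libraries, and 4 samples per group are listed, so whether the samples of a group were separate cultures is not known and the p-values may measure technical spread alone.

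Each interferon receptor is a pair of unlike chains, and each chain carries a Janus kinase on its cytoplasmic tail. Type I interferons bind IFNAR1, which carries TYK2, and IFNAR2, which carries JAK1. Type II interferon binds IFNGR1, which carries JAK1, and IFNGR2, which carries JAK2. Type III interferons bind IFNLR1, which is largely restricted to epithelial cells, together with IL10RB, a chain shared with the receptors of the IL-10 family. Ligand binding lets the kinases phosphorylate STAT proteins, which enter the nucleus in pairs, for type I and III interferons together with IRF9, and switch on interferon target genes, and SOCS1 is a target gene that feeds back on the kinases.

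SIGLEC12 itself was at 0.0795 ± 0.0342 TPM (transcripts per 1e+06 transcripts, SD, n = 4) in empty vector cells and at 1667 ± 71.3 TPM in Siglec-XII–expressing cells. The difference of 10.59 on the log2(TPM + 1) scale fits the labels (exact permutation test, two-sided, p = 0.0286, the smallest that 4 against 4 samples allow). By correlation no library stood apart: Pearson's r over the tested entries was 0.979 to 0.984 within a group and 0.972 to 0.980 between groups. The share of mitochondrially encoded transcripts ran from 6.67% to 11.2% over the samples, and its part in the differences was not tested. Of 16 intestinal and Caco-2 markers, 9 did not reach the filter used for testing, at least 1 TPM in at least 4 samples, and the transcripts of KRT20, FABP1 and SI were listed at 0 in every sample, which goes against the usual profile of Caco-2. Of 15 trophoblast markers, 12 did pass it, against 5 of 6 fibroblast and 2 of 6 leukocyte markers. On the intestinal list, EPCAM, CDH1, KRT8, KRT18, KRT19, CDX1 and CDX2 passed. The other 9, KRT20, HNF4A, VIL1, LGALS4, CDH17, GPA33, FABP1, APOA1 and SI, reached at most 1.35 TPM. The summed level of the intestinal list, carried by its 7 passing members, was 8437 to 9413 TPM in empty vector cells and 10031 to 10433 TPM in Siglec-XII–expressing cells. That of the trophoblast list was 1035 to 1163 TPM and 1073 to 1124 TPM. The intestinal sum says nothing of the 9 genes that did not pass, and the sums do not show which tissue the cells resemble more. The part of these levels in the results was not tested.

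All 10 genes were detected in every sample, over a wide range of levels. In TPM, which is per transcript length, the order of the means over the 8 samples was IFNGR2 at 43.1, TYK2 at 28.2, IFNGR1 at 28.2, JAK1 at 26.0, SOCS1 at 15.5, IL10RB at 15.5, IFNAR1 at 15.0, IFNAR2 at 8.37, IFNLR1 at 1.71 and JAK2 at 0.818. The sample ranges of neighbors overlapped except at 3 steps, between IFNGR2 and TYK2, between JAK1 and SOCS1, and between IFNAR2 and IFNLR1. The median tested entry had a mean of 13.7 TPM, so SOCS1, IL10RB and IFNAR1 lay close to the middle of the expressed genes, IFNGR2 above 76.1% of them and IFNLR1 above only 10.4%. The order of levels therefore fell into a type II pair well above the type I pair, and a type III pair with 1 low chain.

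**Figure D1:**
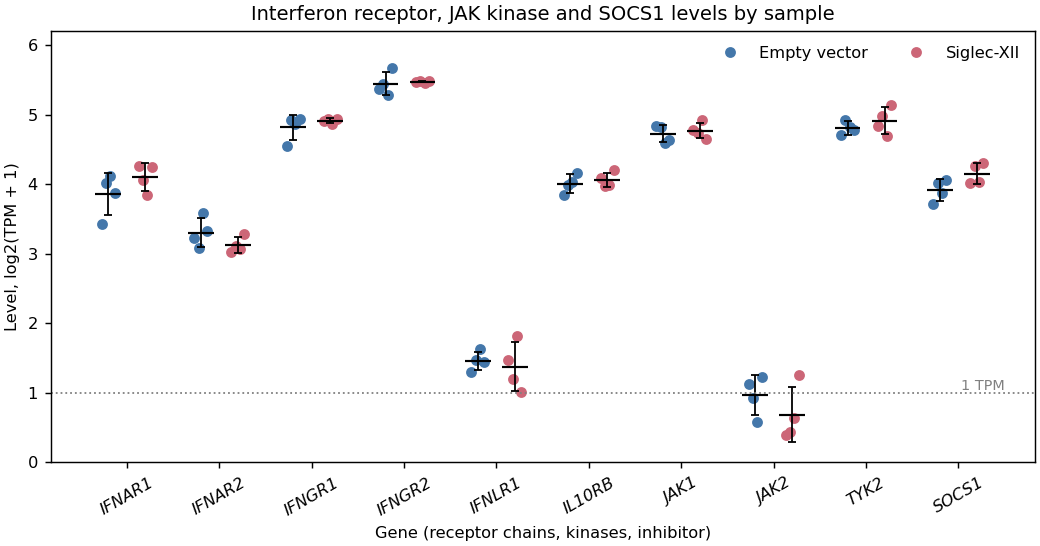
Levels of the 10 genes on the log2(TPM + 1) scale, 1 point per sample, with the mean and SD of the 4 empty vector (blue) and 4 Siglec-XII–expressing (red) samples as bars and 1 TPM as a dotted line. For every gene the points of the groups overlap, IFNLR1 and JAK2 lie lowest, and the lowest IFNAR1, IFNGR1, IL10RB and SOCS1 points all belong to replicate 1 of the empty vector.

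Forced expression of Siglec-XII was compared with empty vector to ask whether the receptors and kinases of the interferon pathway changed in level. None of the 9 tested genes passed an adjusted p of 0.05 in limma, where 101 of 15590 entries (0.648%) did, and none had groups that did not overlap, which 10.8% of tested entries had. SOCS1 alone had an unadjusted limma p of 0.05 or less, as had 16.5% of tested entries. The differences of the 9 genes ran from -0.18 to 0.25 on the log2 scale with a median of 0.05, beside a median of 0.07 for all tested entries, and their median size without regard to sign was 0.093 against 0.11 for all tested entries. Of the 9, 7 were higher and 2 were lower, where 68.1% of all tested entries were higher, but 4 were higher and 5 lower under equal upper quartiles or quantile normalization, where IFNGR2, IL10RB and JAK1 changed sign. The median of the 9 was -0.0057 and -0.0069 under these scalings and ran from 0.0087 without replicate 1 of the empty vector to 0.10 without its replicate 4. The 95% intervals of the 9 differences reached no further than 0.60 from 0 in either direction. The 101 calls over the whole table depended on single samples, since leaving out any 1 of the 8 moved their number by more than 1.5 times, from 49 without replicate 3 of the empty vector to 159 without its replicate 2. Higher calls made up 52.5% of the 101, but 29.3%, 32.6% and 33.3% under equal upper quartiles, quantile normalization and rescaling without mitochondrial and the most abundant transcripts. It ran from 27.6% without replicate 4 of Siglec-XII to 69.8% without replicate 2 of the empty vector, and was 26.1% with the replicate number as a block.

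**Figure D2:**
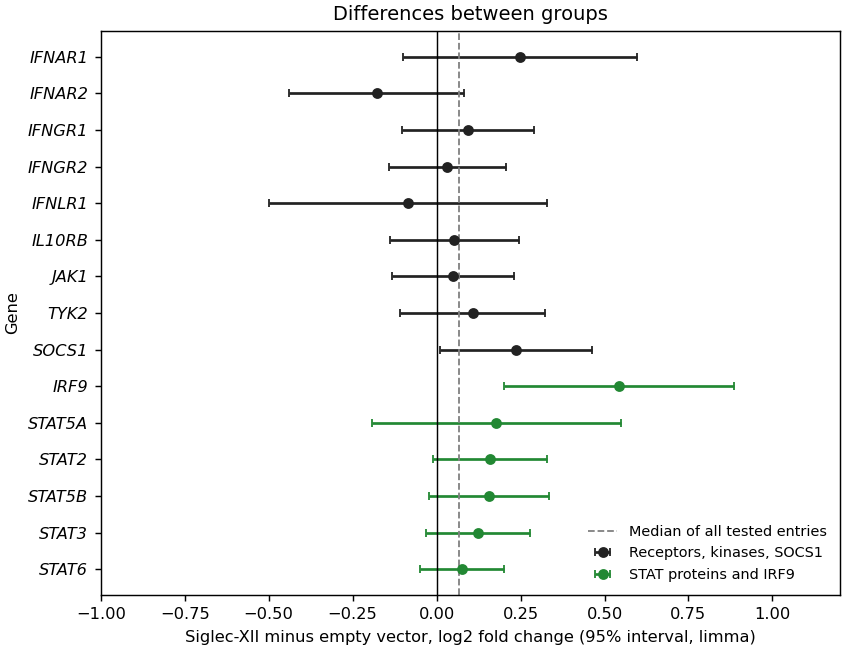
Difference between Siglec-XII–expressing and empty vector cells on the log2(TPM + 1) scale with its 95% interval from limma, for the 9 tested receptors, kinases and SOCS1 (black) and the 6 tested STAT and IRF9 genes shown (green), with the median of all tested entries dashed. Among the black points only the interval of SOCS1, 0.01 to 0.46, leaves out 0, and all 6 green points lie above 0.

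The type I receptor chains had differences of opposite sign. IFNAR1, the chain that carries TYK2, stood at 9.74, 15.2, 16.3 and 13.7 TPM in replicates 1 to 4 of the empty vector and at 18.2, 15.7, 13.4 and 18.0 TPM in those of Siglec-XII–expressing cells. The highest pair of values belonged to Siglec-XII–expressing cells and the lowest to replicate 1 of the empty vector, with the rest intermixed. The log2 difference was 0.25 (95% interval -0.10 to 0.60, limma adjusted p = 0.456), and it was 0.10 without replicate 1 of the empty vector. IFNAR2, the chain that carries JAK1 and binds type I interferon with the higher affinity, stood at 8.34, 7.48, 11.0 and 9.07 TPM with empty vector and at 7.18, 7.66, 7.40 and 8.79 TPM with Siglec-XII. Here 3 of the 4 Siglec-XII values were below 7.7 TPM and 1 of the empty vector values was, and the difference was -0.18 (-0.44 to 0.08, limma adjusted p = 0.472), or -0.086 without replicate 3 of the empty vector.

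The type II receptor chains were the most abundant receptor transcripts and lay close together between groups. IFNGR1, the ligand-binding chain, stood at 22.4, 29.3, 28.1 and 29.8 TPM with empty vector and at 28.9, 29.8, 28.1 and 29.6 TPM with Siglec-XII. All but 1 of these values lay between 28.1 and 29.8 TPM, and replicate 1 of the empty vector was lower. The log2 difference was 0.09 (-0.10 to 0.29, limma adjusted p = 0.638) and came to 0.0019 without that sample. IFNGR2, the chain that carries JAK2, stood on 2 entries, of which the more abundant was used. That entry read 40.4, 42.5, 38.0 and 49.9 TPM with empty vector and 43.5, 43.6, 43.0 and 43.9 TPM with Siglec-XII, so the Siglec-XII samples lay within the spread of the vector samples. The difference was 0.03 (-0.14 to 0.21, limma adjusted p = 0.871).

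The other IFNGR2 entry, which carries the gene ID of the GENCODE annotation, pointed the other way. It read 18.8, 18.5, 22.1 and 18.2 TPM with empty vector and 18.2, 16.7, 14.3 and 17.7 TPM with Siglec-XII, a log2 difference of -0.20 (-0.41 to 0.0048, limma adjusted p = 0.313). Transcripts of the 2 entries share a symbol and may share reads, so the split between them is uncertain. The more abundant entry held 63.2% to 75.1% of their sum, and the sum was 57.3 to 68.1 TPM over the 8 samples. With all entries of a symbol summed, the IFNGR2 difference was -0.04.

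The type III receptor paired a scarce chain with a common one. IFNLR1, the chain that makes a cell responsive to lambda interferons, stood at 1.45, 1.78, 2.09 and 1.72 TPM with empty vector and at 1.78, 1.30, 2.53 and 1.01 TPM with Siglec-XII. Its highest and lowest values both came from Siglec-XII samples, and the difference of -0.08 had the widest interval of the 9 genes (-0.50 to 0.33, limma adjusted p = 0.857). Without replicate 4 of Siglec-XII it was 0.04. IL10RB, the shared chain that carries TYK2, stood at 13.4, 14.9, 15.3 and 17.0 TPM with empty vector and at 16.0, 14.7, 14.9 and 17.4 TPM with Siglec-XII. The groups covered nearly the same range, with a difference of 0.05 (-0.14 to 0.24, limma adjusted p = 0.801) that was -0.0010 without replicate 1 of the empty vector.

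IFNAR2, IL10RB, IFNAR1 and IFNGR2 lie next to each other, in this order, on the plus strand of chromosome 21 (GRCh37, chr21:34577587-34851655, 274 kb). The differences of these 4 neighbors were -0.18, 0.05, 0.25 and 0.03 on the log2 scale, the last from the more abundant IFNGR2 entry. The position given is that of the other IFNGR2 entry, whose difference was negative. The intervals of all 4 spanned both signs, so no contrast in direction was established. IFNGR1 lies on chromosome 6, IFNLR1 and JAK1 on chromosome 1, JAK2 on chromosome 9, TYK2 on chromosome 19 and SOCS1 on chromosome 16.

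Among the kinases, JAK1 and TYK2 were present at similar levels and JAK2 was scarce. JAK1, which serves all 3 types of interferon receptor, stood at 27.7, 27.2, 23.3 and 23.9 TPM with empty vector and at 26.4, 25.7, 29.4 and 24.2 TPM with Siglec-XII. The groups overlapped over most of their range, and the log2 difference was 0.05 (-0.13 to 0.23, limma adjusted p = 0.804). TYK2, the kinase of IFNAR1 and IL10RB, stood at 25.0, 29.4, 27.4 and 26.4 TPM with empty vector and at 27.6, 30.6, 25.0 and 34.4 TPM with Siglec-XII. Replicate 4 of Siglec-XII gave the highest TYK2 value and its replicate 3 lay level with the lowest vector sample, and the difference was 0.11 (-0.11 to 0.32, limma adjusted p = 0.613). It was 0.032 without that replicate 4, 0.18 without that replicate 3 and 0.040 under quantile normalization.

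JAK2, the kinase of IFNGR2, reached 1 TPM in only 3 of 8 samples and so was not among the tested genes. It stood at 1.18, 0.898, 0.497 and 1.34 TPM with empty vector and at 0.320, 0.357, 0.564 and 1.38 TPM with Siglec-XII. Replicates 1 to 3 of Siglec-XII were low and replicate 4 was the highest of all 8 samples. The difference of the group means was -0.28 on the log2(TPM + 1) scale, -0.64 with a pseudocount of 0.1, -0.47 without replicate 4 of Siglec-XII and -0.19 without replicate 1 of Siglec-XII. In a limma fit over the 39568 entries above 0 its 95% interval was -0.83 to 0.27 (limma adjusted p = 0.735). Of the summed TPM of the 3 kinases, JAK2 made up 1.83 ± 0.716% with empty vector and 1.14 ± 0.804% with Siglec-XII (SD), TYK2 50.6 ± 2.99% and 51.9 ± 5.07%, and JAK1 47.6 ± 2.64% and 46.9 ± 5.55%. At such low levels a change in JAK2 of the size seen could not be told from the spread between samples.

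SOCS1, which binds activated kinases and blocks them, had the smallest unadjusted p of the tested genes (limma, 0.0422). It stood at 12.1, 15.2, 13.7 and 15.6 TPM with empty vector and at 15.2, 18.1, 15.4 and 18.7 TPM with Siglec-XII. Both of the highest values were from Siglec-XII samples and the lowest pair from vector samples, while 4 values, 2 from each group, lay together between 15.2 and 15.6 TPM. The log2 difference was 0.24 (0.01 to 0.46) and its adjusted p of 0.285 in limma missed the threshold. The unadjusted p stayed at or below 0.05 in 10 of 17 alternative analyses. It did not when replicate 1 or 3 of the empty vector or replicate 2 or 4 of Siglec-XII was left out, nor under 3 other scalings of the samples, and the difference ran from 0.17 to 0.28 over all of them.

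The region before the start of SOCS1 is shown because it alone, among those found for 9 of the 10 genes, held a match to the core of the element bound by IRF9 with STAT proteins, searched as GAAANNGAAA on either strand. The region before IFNLR1 is shown as the only one with a match to the core of the element bound by STAT pairs, searched as TTCNNNGAA, and the region of IRF9, described with the STAT genes, held the same core. RefSeq windows of the 250 bases before an annotated start (GRCh38.p14) were matched by symbol for all of the genes but IFNAR2, 16 windows in all. Of 35116 such windows of all genes, 3.02% held the GAAANNGAAA core and 6.57% the TTCNNNGAA core. Capitals mark the match, which does not overlap another, and each sequence reads 5′ to 3′ on the strand of the gene.
SOCS1, chr16:11256205-11256454, minus strand: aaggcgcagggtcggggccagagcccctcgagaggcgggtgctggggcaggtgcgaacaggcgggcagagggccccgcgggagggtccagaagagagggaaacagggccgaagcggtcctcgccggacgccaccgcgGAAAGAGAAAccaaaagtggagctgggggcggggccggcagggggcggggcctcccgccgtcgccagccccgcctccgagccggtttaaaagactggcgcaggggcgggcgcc
IFNLR1, chr1:24187290-24187539, minus strand: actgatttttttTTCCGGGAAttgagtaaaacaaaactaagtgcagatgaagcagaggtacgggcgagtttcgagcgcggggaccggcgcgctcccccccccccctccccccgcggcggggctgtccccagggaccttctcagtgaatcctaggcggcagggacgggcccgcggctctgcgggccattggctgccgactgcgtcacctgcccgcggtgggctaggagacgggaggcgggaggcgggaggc
IRF9, chr14:24161015-24161264, plus strand: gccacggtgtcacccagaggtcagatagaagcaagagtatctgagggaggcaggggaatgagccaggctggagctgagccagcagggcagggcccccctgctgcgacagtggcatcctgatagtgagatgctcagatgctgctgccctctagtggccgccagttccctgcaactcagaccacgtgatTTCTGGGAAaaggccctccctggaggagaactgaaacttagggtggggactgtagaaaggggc
Counting back from the annotated start, the SOCS1 match began at position -113, that of IFNLR1 at -238 and that of IRF9 at -63. A match of letters is a description and not a measured binding site.

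The levels of partner genes were also compared within each sample, as 6 ratios on the log2(TPM + 1) scale. The ratio of IFNAR1 to IFNAR2, as a difference of such values, was 0.20, 0.93, 0.53 and 0.54 with empty vector and 1.23, 0.95, 0.78 and 0.96 with Siglec-XII. All values were above 0, so IFNAR1 exceeded IFNAR2 in every sample, and only replicate 2 of the empty vector reached the Siglec-XII range. The mean ratio was 0.43 higher with Siglec-XII (exact permutation test, two-sided, p = 0.0571, or 0.343 when Benjamini-Hochberg adjusted over the 6 ratios). The ratio of JAK2 to TYK2 differed by -0.39 (exact permutation p = 0.143, adjusted 0.429) and that of JAK1 to JAK2 by 0.33 (exact permutation p = 0.286, adjusted 0.571). Both depend on the pseudocount, since JAK2 was low, and were -0.75 and 0.69 with a pseudocount of 0.1 and 0.56 for JAK1 to JAK2 without replicate 4 of Siglec-XII. The ratios of IFNLR1 to IL10RB, JAK1 to TYK2 and IFNGR1 to IFNGR2 differed by -0.14, -0.06 and 0.06, each changed sign when 1 sample was left out, and the groups overlapped for all 6.

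**Figure D3:**
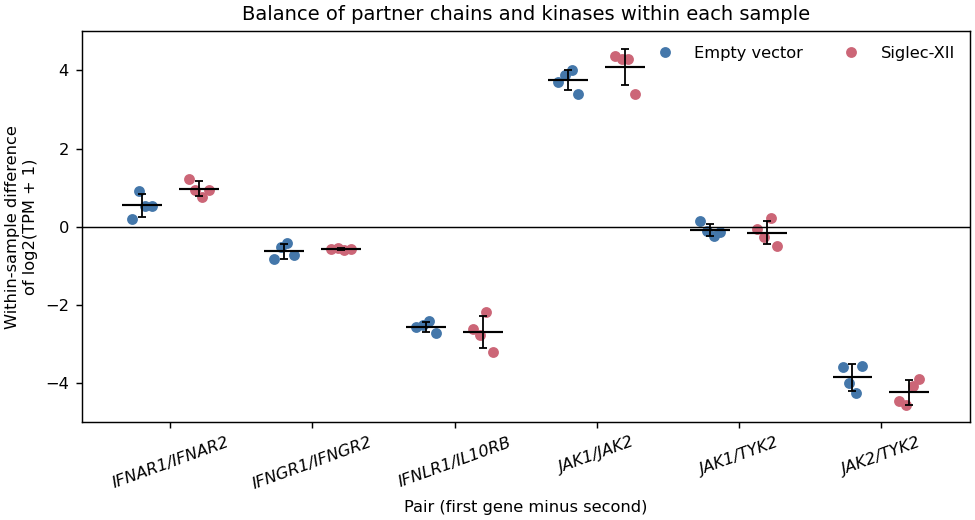
Within-sample difference of log2(TPM + 1) between partner receptor chains and between kinases, 1 point per sample, with mean and SD of the 4 samples of a group as bars. IFNAR1/IFNAR2 lies between 0.20 and 1.23 with the groups overlapping at replicate 2 of the empty vector, and JAK1/JAK2 lies far above 0 in all 8 samples.

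Replicate 1 of the empty vector gave the lowest value of 4 of the 9 tested genes, IFNAR1, IFNGR1, IL10RB and SOCS1, and the highest of none. Among the analyses that left out 1 sample, the differences of these 4 genes were lowest without it, at 0.10, 0.0019, -0.0010 and 0.17 on the log2 scale. The direction of IFNAR1, IFNAR2, IFNGR1, TYK2 and SOCS1 held in all 17 alternatives. Not all of these could change it. Another filter, no variance trend, the replicate block and, for genes with 1 entry such as these, summed entries leave the difference as it was. In bulk RNA a lower level in each cell and a smaller share of cells with the transcript cannot be told apart.

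**Figure D4:**
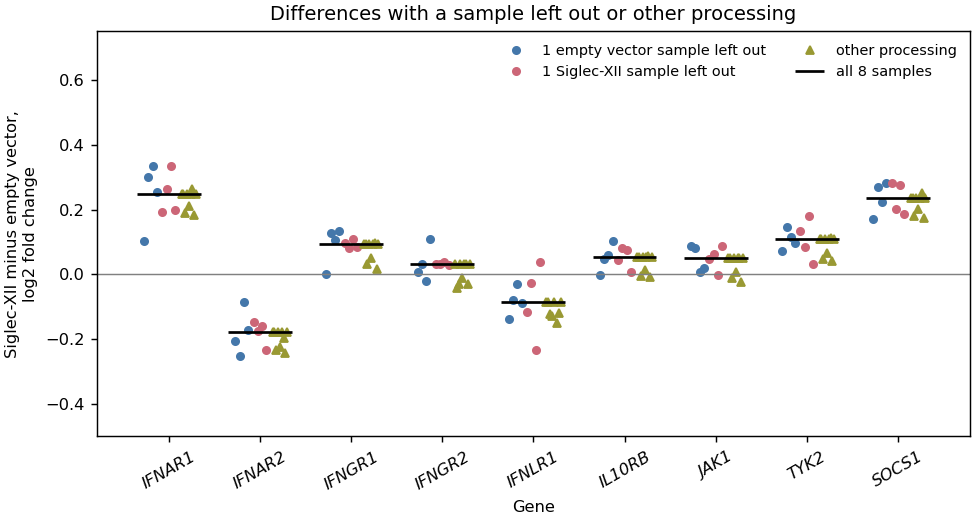
Log2 difference between Siglec-XII–expressing and empty vector cells for the 9 tested genes with all 8 samples (bar), with 1 sample left out (blue for an empty vector sample, red for a Siglec-XII sample) and under other processing (triangles). SOCS1 stays between 0.17 and 0.28, whereas IFNGR2, IFNLR1, IL10RB and JAK1 have points on both sides of 0.

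Transcripts of the 21 listed ligands of these receptors were low or absent. None of the 21 passed the filter, and 14 were listed at 0 in all 8 samples. Of the 21, only the 3 lambda interferons IFNL1, IFNL2 and IFNL3, which signal through IFNLR1, reached 1 TPM in any sample. IFNL4, another lambda interferon gene, was not on the list and did pass the filter, as described at the end. IFNL1, singled out after its values were seen, stood on the log2(TPM + 1) scale at 0.44, 0.31, 0.12 and 0.80 with empty vector and at 1.03, 0.95, 0.89 and 0.95 with Siglec-XII. Every Siglec-XII value exceeded every vector value, a difference of 0.54 with an adjusted p of 0.362 in limma over the entries above 0. IFNB1, also named after its values were seen, was listed at 0 in all empty vector samples and in 1 Siglec-XII sample, and at 0.13, 0.21 and 0.51 on that scale in the other 3. Its highest value was 0.42 TPM, and its adjusted p was 0.591 in limma over the entries above 0. Of the other type I ligands above 0 in any sample, IFNE differed by 0.04 and IFNA5 by 0.00011. IFNW1, above 0 in 3 empty vector samples and 1 Siglec-XII sample, differed by -0.05. The groups overlapped for IFNL2 and IFNL3, with differences of -0.11 (limma adjusted p = 0.882) and 0.15 (limma adjusted p = 0.735) over the entries above 0.

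Of 8 listed STAT proteins and other transducers of cytokine receptors, 6 passed the filter and all 6 were higher with Siglec-XII, beside 68.1% of all tested entries. They were also higher under each of the 17 alternatives in which they were tested. Of these, another filter, no variance trend and the replicate block could not change a direction. The median difference was 0.16, or 0.099 and 0.090 under equal upper quartiles and quantile normalization. None passed the adjusted threshold, beside 0.648% of all tested entries. For IRF9 alone the unadjusted p was at most 0.05, as for 16.5% of all tested entries. IRF9, a DNA-binding partner of STAT2, stood on the log2(TPM + 1) scale at 2.04, 1.81, 1.68 and 2.33 with empty vector and at 2.67, 2.43, 2.36 and 2.58 with Siglec-XII. The groups did not overlap, as for 10.8% of all tested entries, and the difference was 0.54 (0.20 to 0.89, limma adjusted p = 0.144). IRF9 stood on 2 entries with identical values, so reads of the gene may have been divided between them. STAT6, which serves the IL-4 and IL-13 receptors and was the most abundant of the list, was at 39.4 ± 0.748 TPM with empty vector and 41.7 ± 2.73 TPM with Siglec-XII (SD, n = 4), a log2 difference of 0.08 (-0.05 to 0.20, limma adjusted p = 0.532) that was 0.010 under quantile normalization and 0.036 without replicate 1 of Siglec-XII.

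All 17 other negative regulators of the pathway were expressed, 9 higher and 8 lower with Siglec-XII (8 and 9 under equal upper quartiles). The median difference was 0.04 and none passed the adjusted threshold, beside 0.648% of all tested entries. SOCS7, of the family of SOCS1, differed by 0.24 (limma adjusted p = 0.193) and USP18, which binds IFNAR2 and dampens type I signaling, by 0.26 (limma adjusted p = 0.282), and for these 2 of the 17 the unadjusted p was at most 0.05, beside 16.5% of all tested entries. The same 2 did not overlap between groups, beside 10.8% of all tested entries. PTPN11, the phosphatase SHP2 and the most abundant of the list, was at 148 ± 12.8 and 164 ± 10.3 TPM, a log2 difference of 0.15 (limma adjusted p = 0.321). SOCS3, a relative of SOCS1 that acts mainly on IL-6 type receptors, had a mean of 22.7 TPM with empty vector and 25.0 TPM with Siglec-XII, above SOCS1 in both groups.

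None of the other cytokine receptors that use Janus kinases was called, beside only 0.648% of all tested entries. Of 21, 12 passed the filter, 10 of them higher and 2 lower, beside 68.1% higher among all tested entries, with a median difference of 0.12. Only for CSF2RA, the alpha chain of the GM-CSF receptor, was the unadjusted p at most 0.05, beside 16.5% of all tested entries, and its difference was 0.19 (limma adjusted p = 0.289). IL6ST, the shared chain of IL-6 type receptors, was at 71.8 ± 10.04 TPM with empty vector and 77.99 ± 4.08 TPM with Siglec-XII. Of 7 genes for the scaffold and the turnover of interferon receptors all passed the filter. The median difference was 0.07 and none was called, beside the same 0.648%. FBXW11, a subunit of the ligase that marks IFNAR1 for removal, differed by 0.19 (limma adjusted p = 0.256), and RACK1, a scaffold that binds IFNAR chains and ribosomes, was the most abundant at 2140 ± 143 and 2138 ± 185 TPM.

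Downstream of the receptors, 19 of 32 interferon target genes passed the filter. Of these, 18 were higher with Siglec-XII and 1 lower, beside 68.1% higher among all tested entries. The list had a median difference of 0.20, or 0.14 under quantile normalization, where 16 were higher. For 8 of the 19 the unadjusted limma p was at most 0.05, beside 16.5% of all tested entries. The groups did not overlap for 6, beside 10.8%. All of these counts include IFIT1, IFIT2 and IFIT3, described next, so the counts are given as a description. With a mean of at least 5 TPM, which leaves out the 3 and other low genes, 11 were tested. Of the 11, 10 were higher and 1 lower, with a median of 0.16. For 4 of the 11 the unadjusted limma p was at most 0.05, whereas the 16.5% belongs to the main filter. The genes with the lowest p were IFIT1, IFIT2 and IFIT3, which encode proteins that bind foreign RNA. Their differences were 1.75, 1.82 and 1.35 on the log2(TPM + 1) scale, and 3.09, 3.14 and 3.01 with a pseudocount of 0.1, since the empty vector samples were all below 1 TPM. The 3 passed the filter through the Siglec-XII samples alone, so these values are given as a description. IFIH1, a sensor of double-stranded RNA, OAS3, which makes the activator of RNase L, and ISG15, a ubiquitin-like modifier, came next by p, with differences of 0.58, 0.42 and 0.44 that missed the adjusted threshold. The receptor, kinase and SOCS1 differences beside them were all 0.25 or less in size among the tested genes.

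For each tested gene the entries closest to it over the 8 samples are given as a description, by Pearson's r of log2(TPM + 1) against 10970 entries with a mean of at least 5 TPM. All points share their libraries, and the highest of 10970 values over only 8 samples can be large through the search alone. Of the entries, 1.91% had an r above 0.9 with SOCS1 and 0.0456% with IFNLR1, the highest and lowest of the 9 shares. SOCS1 was closest to WWP2 (0.992) and EEF1A2 (0.988), and IFNAR1 to PUSL1 (0.988) and SLC25A38 (0.979). IFNAR2 was closest to AC138696.2 (0.962) and C8orf31 (0.953), IFNGR1 to SNAPIN (0.984) and NR2C2 (0.974), and IFNGR2 to CRLF3 (0.977) and MKRN3 (0.960). IFNLR1 was closest to TMEM50A (0.952) and CKAP2 (0.936) and IL10RB to TMEM30A (0.982) and MLH3 (0.975). JAK1 was closest to ITSN1 (0.924) and PPM1B (0.923) and TYK2 to ZNF672 (0.984) and GPAT4 (0.981). No entry was the closest of more than 1 of the genes.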

How the data were processed

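RNA of 8 Caco-2 samples was sequenced as paired reads, with a total RNA kit per the labels and a stranded mRNA kit per the methods. The authors quantified reads with kallisto (0.45.0 per the submitters' processing notes, another version per the methods) on hg19 and deposited log2(TPM + 1) values per gene entry. Each column sums to 1e+06 TPM, so depth and counts are unknown, intervals cover the spread between samples, and a value is relative to the other RNA of its sample. All 8 columns matched a sample title. Values were compared as deposited (pseudocount 1) with limma 3.58.1 in R 4.3.3 (lmFit, eBayes with trend, Benjamini-Hochberg over the 15590 entries at 1 TPM or more in at least 4 samples). Ratios were compared by two-sided exact permutation tests over 70 labellings. The fit was tested on simulated data. The genes and lists were chosen with earlier results of these data known. 1 pathway gene was left out of the lists and is not reported here. List genes were named when their unadjusted p was 0.05 or less or when most abundant, up to 6 target genes by lowest p, and each tested gene's 2 closest entries. Positions are from GENCODE on GRCh37, which held 86.9% of gene IDs; for IFNGR2 that of the other entry was used. Same-numbered samples of the groups deviated with r of -0.07 to 0.06, so the numbers were not taken to pair them. Alternatives were another pseudocount, 2 other filters, 3 scalings, no trend, summed entries, a replicate block and leaving out each sample.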

Additional observations from a re-analysis of the deposited data

Results flagged for a closer look

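Of 66 groups of 4 samples examined for a sample standing apart from the others, 3 were flagged, and chance flags about 1 group in 20. USP18 was 1.70 on the log2(TPM + 1) scale in replicate 1 of the empty vector, below the 1.94 to 1.98 of the other 3. The other IFNGR2 entry was 4.53 on that scale in replicate 3 of the empty vector, above the 4.26 to 4.30 of the other 3. The ratio of JAK1 to JAK2 was 3.40 in replicate 4 of Siglec-XII, below the 4.28 to 4.37 of the other 3, where JAK2 was at 1.38 TPM.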

How the results depend on the processing

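No tested receptor, kinase or SOCS1 passed the adjusted threshold in any of 17 alternatives. The count at an unadjusted p of 0.05 or less was 0 instead of 1 under equal upper quartiles, under quantile normalization and with mitochondrial and the 100 most abundant entries left out, and ranged from 0 to 1 when 1 sample was left out. The IFNGR2 difference turned to -0.042, -0.028, -0.0098 and -0.030 with summed entries, equal upper quartiles, those entries left out and quantile normalization. IL10RB and JAK1 turned to -0.0057 and -0.010 under equal upper quartiles and to -0.0069 and -0.025 under quantile normalization, where RACK1 turned to 0.11. When 1 sample was left out, differences ranged from -0.021 to 0.11 for IFNGR2, -0.23 to 0.039 for IFNLR1, -0.0010 to 0.10 for IL10RB, -0.0024 to 0.089 for JAK1 and -0.062 to 0.025 for RACK1, and ratios from -0.0068 to 0.13 for IFNGR1/IFNGR2, -0.31 to 0.032 for IFNLR1/IL10RB and -0.18 to 0.057 for JAK1/TYK2. Calls over the whole table, 101, were 54 without the variance trend, 51 without the filter and 49 to 159 with 1 sample left out. With the replicate block they were 69, and none of the receptors, kinases or SOCS1 was called with or without it. The labels do not say whether the numbers pair samples, and they were not taken to. Of the pathway lists, only the 3 IFIT genes fell under the adjusted threshold, beside 0.648% of all tested entries. They passed the filter through the Siglec-XII samples alone, so this count is a description. The count was 0 with a mean of at least 5 TPM, which leaves out the IFIT genes together with IFNLR1, IRF9, USP18 and IFIH1. RACK1 has no value with the most abundant entries left out. The cause of the other changes was not tested. Without read counts the precision of low genes such as JAK2, IFNLR1 and the interferons is unknown.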

Other observations

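IFNL4, a lambda interferon gene that was in no list and was added after its values were seen, passed the filter with values of 0.999, 1.45, 1.19 and 1.46 on the log2(TPM + 1) scale in empty vector cells and 1.09, 1.30, 1.45 and 1.48 in Siglec-XII–expressing cells. The difference was 0.06 (95% interval -0.30 to 0.41, limma adjusted p = 0.890), and the groups overlapped over most of their range. JAK3, the kinase of the common gamma chain in lymphocytes, did not reach 1 TPM in any sample and stood at 0.164 ± 0.0238 TPM with empty vector and 0.162 ± 0.0369 TPM with Siglec-XII (SD, n = 4).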
